A study of Mus musculus with 6 samples.

Results

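RNA from whole testis was sequenced to ask how 36 genes of spermatogonial stem, progenitor and differentiating cells were expressed after loss of peptidylarginine deiminases (PADs), enzymes that convert arginine residues of proteins to citrulline. The 36 genes were chosen by name, as genes known for these cells, by a rule that used no measured value but was set with earlier results of these data known. All 36 were found among the 55536 genes of the count table, and 31 had enough counts to be tested. The mice were 4 months old and homozygous, and all 3 genotypes shared the inbred FVB/NJ strain, which served as WT. P2KO carried a gene trap in which coding sequence of Padi2 exon 1 was replaced by LacZ and neomycin sequence. DKO carried the same Padi2 trap and, in addition, a small frame-shifting deletion in Padi4 exon 1, made with CRISPR/Cas9 in Padi2-null embryos and kept as a single mutant line. Each genotype had 2 mice, each giving 1 library from snap-frozen testis. No library of a Padi4 single knockout was analysed here.

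Spermatogenesis is sustained by a small pool of undifferentiated spermatogonia on the basement membrane of the seminiferous tubule. Sertoli cells secrete the growth factor GDNF, which is bound on these cells by GFRA1 and signals through the receptor tyrosine kinase RET, and this signal maintains transcription factors such as ETV5, BCL6B and LHX1. Retinoic acid moves the cells toward differentiation, when KIT, SOHLH1 and SOHLH2 come on and the cells divide several times before meiosis. In an adult testis these cells are far outnumbered by spermatocytes and spermatids, so their messages are a minor part of whole-testis RNA. In such bulk samples, fewer cells of a type and less RNA per cell cannot be told apart.

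Each library held between 21939393 and 27306679 reads counted on genes. The 36 genes together took only 0.116% to 0.12% of a library's counts, and Dmrtb1 alone supplied 54.3% to 57.8% of them. The targeted genes were read first. Padi4 had 20 and 43 counts in WT, 11 and 10 in P2KO and 4 and 4 in DKO, and was lower in DKO than in WT (log2 fold change -2.94, SE 0.513, edgeR quasi-likelihood adjusted p = 2.78e-04). DESeq2 called it on the libraries of those genotypes alone, and gave it no adjusted p on all 6 libraries. It was not called for P2KO against WT (-1.63, SE 0.423, adjusted p = 0.0959) or for DKO against P2KO (-1.31, SE 0.628, adjusted p = 0.404), so no call separated the knockouts by this gene. Padi2 had 47 and 64 counts in WT, 100 and 55 in P2KO and 59 and 83 in DKO, so its gene total, which includes exons outside the trap, did not check the Padi2 genotype. Markers of Sertoli, Leydig, myoid, macrophage, endothelial, spermatocyte and spermatid cells were all detected apart from the Sertoli marker Trf, which had at most 3 counts in every library and shares 63.5% of its exon bases with Gm20425 on the same strand, so that its reads may not have been assigned to it.

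None of the 36 genes was called between any 2 genotypes. A call was an adjusted p under 0.05 in edgeR's quasi-likelihood test, adjusted over all 20744 tested genes. For P2KO against WT the count was 0 of 31 members, where 0.337% of all tested genes were called. It was 0 of 31 for DKO against WT, where 3.22% were called, and 0 of 31 for DKO against P2KO, where 1.21% were called. Beside shares this low, a count of 0 among 31 does not set the members apart. At an unadjusted p under 0.05 there were 3 members for P2KO against WT (Ret and Kit higher, Pdpn lower), 2 for DKO against WT (Ret higher, Pdpn lower) and 1 for DKO against P2KO (Kit lower), beside 8.57%, 14.1% and 11.8% of all tested genes in either direction. By direction those shares were 4.55% higher and 4.02% lower for P2KO against WT, 7.89% and 6.25% for DKO against WT, and 6.17% and 5.68% for DKO against P2KO. DESeq2 on all 6 libraries called 0 members as well, of the 31, 25 and 25 to which it gave an adjusted p. The lowest adjusted p among members was 0.488, 0.14 and 0.295 with edgeR and 1, 0.619 and 0.672 with DESeq2 on all 6 libraries, in the same order.

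The size of change that these data leave room for differed by gene. The 95% interval of the log2 fold change lay wholly within 1 either way, that is within a doubling or a halving, for 27 of 31 members in P2KO against WT, for 27 in DKO against WT and for 28 in DKO against P2KO. It lay within 0.5 for 18, 16 and 19 members. The exceptions at 1 were Nanos3, Neurog3, Pdpn and Upp1 against WT, and Nanos3, Neurog3 and Pdpn between the knockouts, all with a mean normalized count under 100. Normalized counts are raw counts scaled for each library's effective size. The median distance from the estimate to the end of its interval was 0.13 for the 4 members with a mean normalized count of at least 1000, 0.26 for the 14 from 100 to 1000 and 0.50 for the 13 below.

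**Figure D1:**
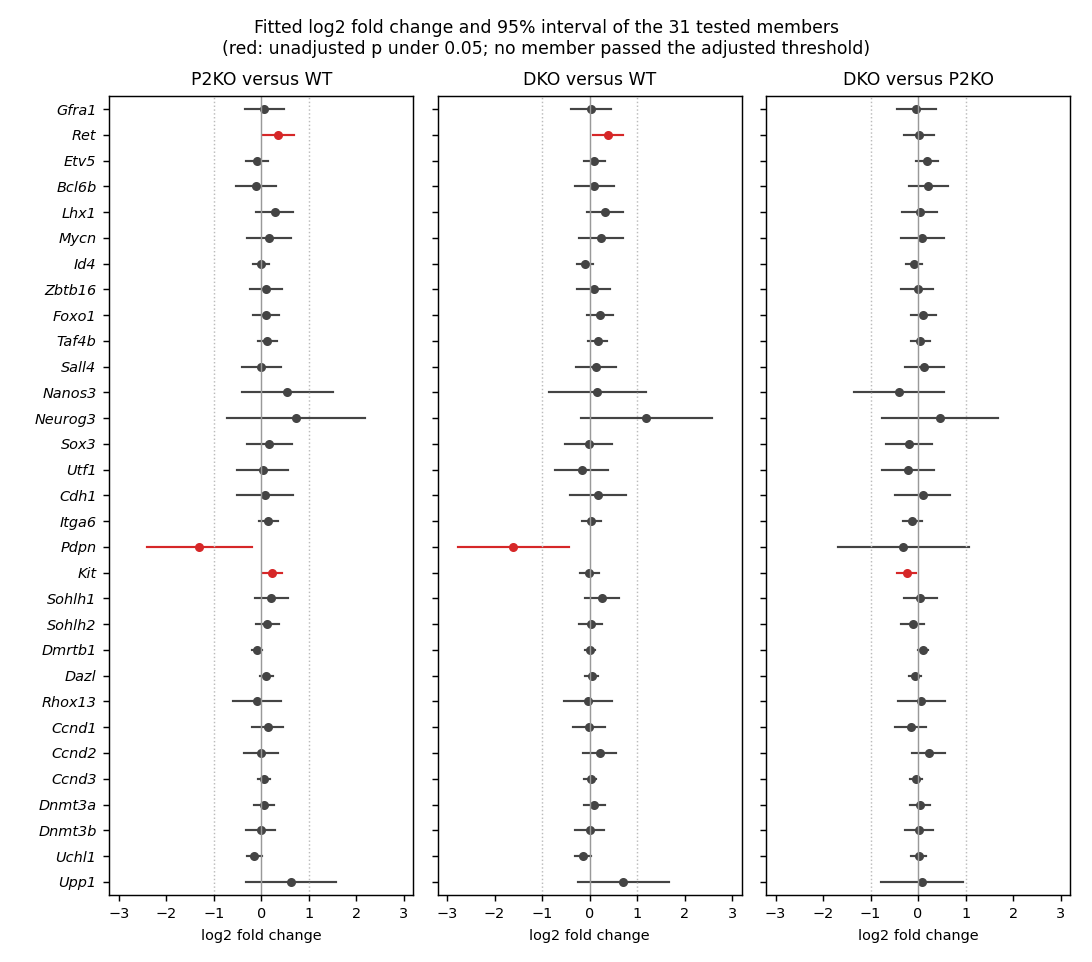
Log2 fold change (horizontal axis, points) with its 95% interval (bars) for each of the 31 tested members in the 3 comparisons. Red marks an unadjusted p under 0.05, dotted lines mark log2 changes of 1 either way, and the widest intervals are those of Neurog3 and Pdpn.

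Of the 31 tested members, 22 had a log2 fold change above 0 for P2KO against WT, 23 for DKO against WT and 18 for DKO against P2KO. The medians were 0.10, 0.09 and 0.02, beside 0.00 over all tested genes in each comparison. The quartiles of the members ran from -0.01 to 0.16 and from 0.00 to 0.19 against WT, while those of all tested genes ran from -0.10 to 0.11 and from -0.13 to 0.12. Both comparisons with WT share the same 2 WT libraries. Without WT 2 the medians against WT were 0.03 for P2KO and 0.04 for DKO, and with a correction for gene length they were 0.06 and 0.06. With RLE size factors they were 0.10 and 0.09, and with DESeq2 on all 6 libraries 0.10 and 0.08. The 2 libraries of each genotype did not overlap for 12 members in P2KO against WT (9 higher, 3 lower) and for 12 in DKO against WT (10 higher, 2 lower), or 7 in DKO against P2KO (3 higher, 4 lower). Over all tested genes the share without overlap was 37.5% (18.7% higher, 18.8% lower), 43.2% (21.6% and 21.6%) and 42.8% (21.1% and 21.6%).

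**Figure D2:**
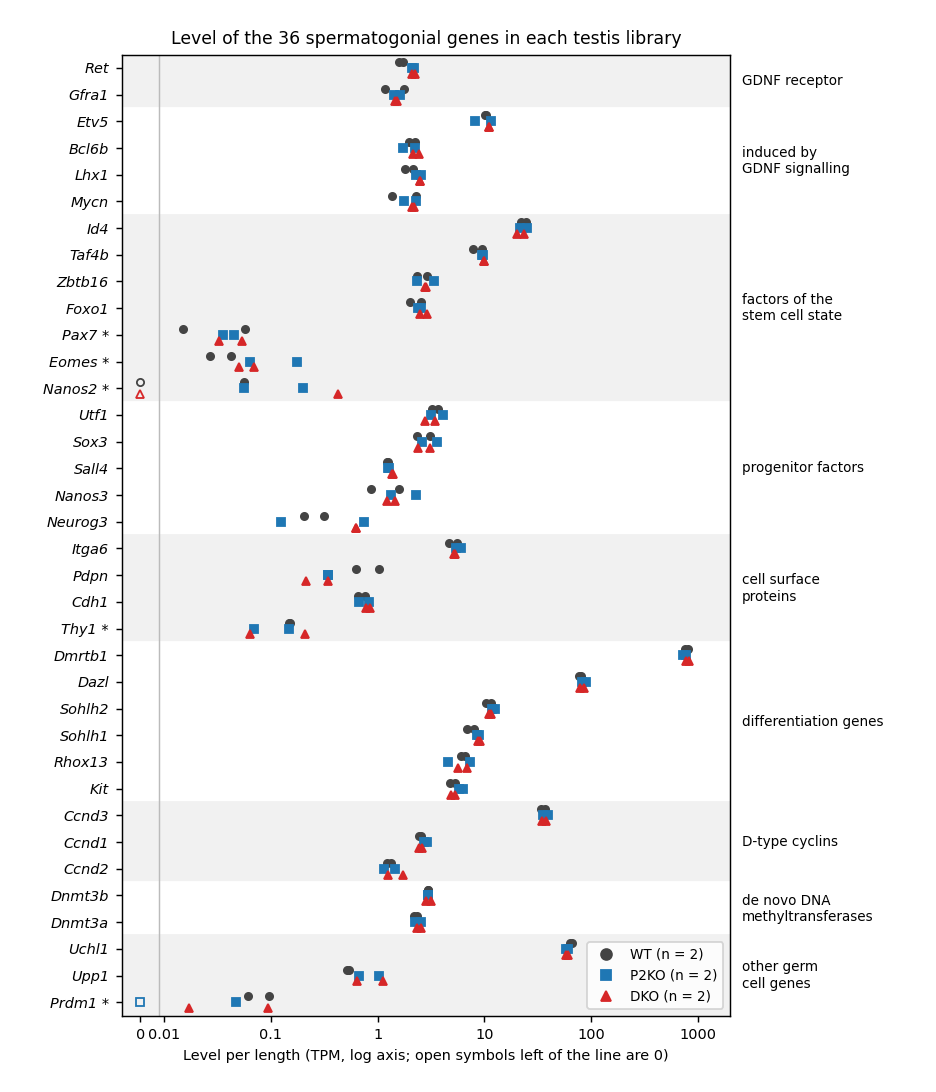
Level per length (TPM, log axis) of each of the 36 members in each of the 6 libraries, grouped by role, with colour and shape marking genotype. Dmrtb1 lies above all others near 785 TPM in WT, and Eomes, Pax7, Nanos2, Thy1 and Prdm1 have the lowest WT means.

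Per length of transcript, the members spanned from 785 TPM (counts scaled to exon length and to a fixed total per library) for Dmrtb1 to 0.0283 TPM for Nanos2 in WT. After Dmrtb1 came Dazl at 78.8 ± 2.72 TPM (SD, n = 2), Uchl1 at 64.4 ± 2.15, Ccnd3 at 35.5 ± 2.11 and Id4 at 23.2 ± 1.5. These 5 levels did not overlap between neighbours in WT. Lower in the order, Itga6 at 5.1 ± 0.562 TPM and Kit at 5.05 ± 0.338 differed by less than their spread, as did Ret at 1.65 ± 0.0958 and Gfra1 at 1.46 ± 0.415. The length used for a gene moves its level: with the longest transcript in place of all exons merged, Ccnd3 stood at 67.4 TPM and Itga6 at 8.9 TPM in WT.

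The GDNF receptor was represented by its signalling subunit Ret and its ligand-binding subunit Gfra1. Ret (chromosome 6, 118151745 to 118197718, minus strand, GRCm38) had normalized counts of 116 and 112 in WT, 141.9 and 151.2 in P2KO, and 152.3 and 144.2 in DKO. All 4 knockout libraries lay above both WT libraries, and the knockouts overlapped each other. The log2 fold change was 0.36 (SE 0.158, 95% interval 0.04 to 0.68, adjusted p = 0.518) for P2KO and 0.38 (SE 0.158, interval 0.06 to 0.70, adjusted p = 0.236) for DKO, a fold of 1.28 and 1.3. Across the 14 alternative fits of each comparison the value for Ret ran from 0.31 to 0.41 for P2KO and from 0.33 to 0.42 for DKO, and none gave a call. Between the knockouts it was 0.02 (interval -0.29 to 0.33). Gfra1 had 95.76 and 66.65 in WT, 88.7 and 78.78 in P2KO, and 78.55 and 84.81 in DKO. Its WT libraries enclosed all 4 knockout libraries, with a log2 fold change of 0.06 (interval -0.35 to 0.48) for P2KO and 0.02 (-0.40 to 0.44) for DKO.

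The transcription factors induced by GDNF signalling were Etv5, Bcl6b, Lhx1 and Mycn. Etv5, an ETS factor needed for stem cell self-renewal and the highest of the 4 per length (10.2 TPM in WT), had normalized counts of 421.3 and 435.1 in WT, 337.1 and 473.7 in P2KO, and 456 and 463.3 in DKO. The P2KO libraries enclosed those of the other genotypes, and the log2 fold change was -0.09 (interval -0.33 to 0.15) for P2KO and 0.10 (-0.13 to 0.33) for DKO. Part of the Etv5 transcript has a near-identical copy, Gm4798, at 98.6% over 1700 nucleotides, so some Etv5 reads may not have been assigned to it. The repressor Bcl6b, the LIM homeobox factor Lhx1 and the MYC family member Mycn had log2 fold changes from -0.11 to 0.32 against WT, the highest that of Lhx1 in DKO (interval -0.06 to 0.70, adjusted p = 0.484).

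Of the 7 factors of the stem cell state, 4 were tested. Id4, an inhibitor of basic helix-loop-helix (bHLH) factors that marks the most primitive spermatogonia, was the highest (23.2 TPM in WT). It had normalized counts of 933.9 and 893.3 in WT, 961.5 and 845.3 in P2KO, and 894.7 and 803.6 in DKO, so all genotypes overlapped. Its log2 fold change was -0.01 (interval -0.18 to 0.16) for P2KO and -0.10 (-0.27 to 0.07) for DKO. Zbtb16, which encodes the zinc-finger repressor PLZF, stood at 0.10 and 0.09 in the same comparisons, and the forkhead factor Foxo1 at 0.11 and 0.22. Taf4b, a germ cell subunit of the general transcription factor TFIID, stood at 0.13 and 0.17 with all 4 knockout libraries above both WT libraries (lowest adjusted p 0.464).

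The other 3 stem cell factors, the surface protein gene Thy1 and the germ cell repressor gene Prdm1 did not pass the filter on low counts. In the order WT 1, WT 2, P2KO 1, P2KO 2, DKO 1 and DKO 2, the T-box factor gene Eomes had 1, 2, 3, 7, 3 and 2 reads. The paired-box factor gene Pax7, on chromosome 4 at 1.07 Mb from Padi2, had 3, 1, 3, 2, 2 and 3. Nanos2, an RNA-binding protein gene of the stem cell state, had 0, 1, 1, 3, 7 and 0. These genes mark only a few cells of an adult testis, and no change short of a large one was detectable at this depth. Thy1 had 4, 5, 5, 2, 2 and 6 reads and Prdm1 had 3, 6, 3, 0, 1 and 5. An observed count of 0 allows an expected count of up to about 3, which was 0.11 to 0.137 CPM (counts scaled to a fixed library total), and this limit covers counting error only.

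The 5 progenitor factors were Sall4, Nanos3, Neurog3, Sox3 and Utf1. Utf1, a chromatin-associated factor and the highest per length at 3.44 TPM in WT, had normalized counts of 39.43 and 47.21 in WT, 39.03 and 51.1 in P2KO, and 42.15 and 34.99 in DKO, with overlap between WT and each knockout. The zinc-finger factor Sall4 had a log2 fold change of 0.00 (interval -0.41 to 0.42) for P2KO and 0.14 (-0.28 to 0.55) for DKO. Sox3, an X-linked HMG-box factor, stood at 0.17 and -0.02. Neurog3, a bHLH factor of progenitors, had the widest intervals of any member against WT. Its 3 and 6 reads in WT, 14 and 2 in P2KO and 11 and 10 in DKO gave 0.73 (interval -0.72 to 2.18) for P2KO and 1.19 (-0.19 to 2.57, adjusted p = 0.457) for DKO. Nanos3, an RNA-binding protein gene, had 13 and 9 reads in WT, 14 and 20 in P2KO, and 14 and 11 in DKO.

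Among the surface proteins, Pdpn had the lowest log2 fold change of any member against WT. Between the knockouts it was -0.31, and Nanos3 was lowest at -0.40. Pdpn encodes podoplanin, a mucin-type membrane glycoprotein, and lies on chromosome 4 (143267431 to 143299564, minus strand, GRCm38), 2.31 Mb from Padi2. It had 10 and 21 reads in WT, 7 and 6 in P2KO, and 4 and 6 in DKO, or normalized counts of 11.27 and 19.44, 6.209 and 6.387, and 3.832 and 6.361. All 4 knockout libraries lay below both WT libraries. The log2 fold change was -1.30 (SE 0.544, interval -2.40 to -0.19, adjusted p = 0.488) for P2KO and -1.61 (SE 0.574, interval -2.78 to -0.44, adjusted p = 0.14) for DKO. The WT mean rests on WT 2: without that library the values were -0.83 and -1.14. Itga6, the integrin subunit used to enrich spermatogonia, was the highest surface gene (5.1 TPM in WT), with normalized counts of 495.7 and 444.3 in WT, 494 and 548.3 in P2KO, and 480.9 and 477.1 in DKO. Those of DKO lay inside the WT range, with a log2 fold change of 0.03 (interval -0.17 to 0.23), and P2KO stood at 0.15 (-0.05 to 0.35). Short stretches of Itga6 have near-identical copies at other loci. Cdh1, the gene for E-cadherin, stood at 0.07 and 0.17.

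**Figure D3:**
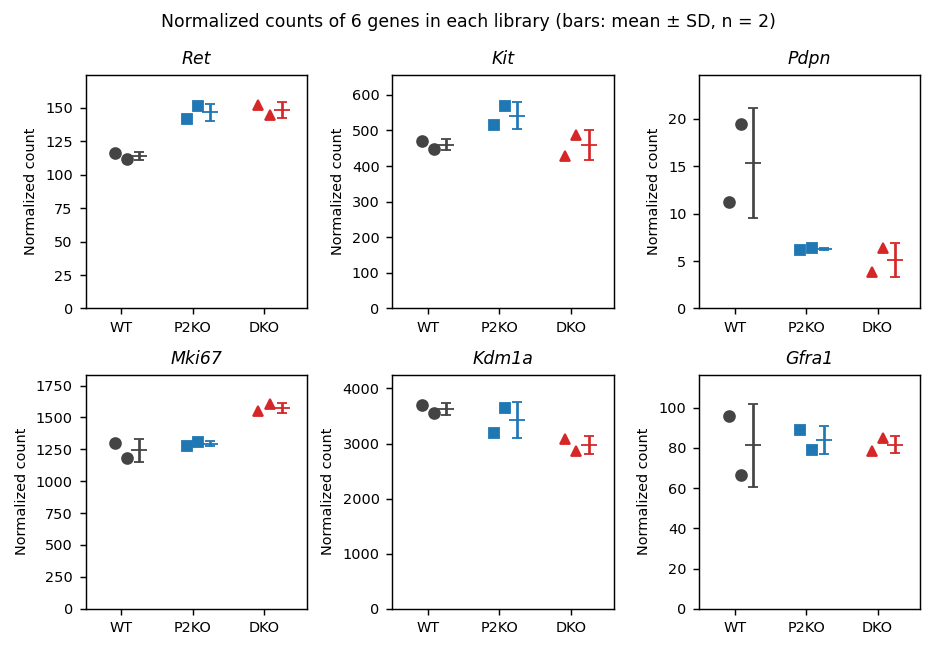
Normalized counts (vertical axes, from 0) of 6 genes in each of the 6 libraries, with points for libraries and bars for the mean ± SD (n = 2) of a genotype. Ret lies higher and Pdpn lower in all knockout libraries than in WT, Kit is highest in P2KO, Mki67 is higher and Kdm1a lower in DKO than in WT, and Gfra1 overlaps throughout.

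The differentiation genes included Kit, the receptor for stem cell factor and the usual mark of differentiating spermatogonia. Kit (chromosome 5, 75574916 to 75656722, plus strand, GRCm38) had normalized counts of 470.9 and 449 in WT, 514.4 and 567.4 in P2KO, and 429.1 and 487.7 in DKO. The P2KO libraries lay above all others, and DKO enclosed WT. The log2 fold change was 0.23 (SE 0.0986, interval 0.03 to 0.43, adjusted p = 0.49) for P2KO against WT, -0.01 (interval -0.21 to 0.20, adjusted p = 0.993) for DKO against WT and -0.24 (SE 0.0985, interval -0.44 to -0.04, adjusted p = 0.295) for DKO against P2KO. The last 2 comparisons each share libraries with the first.

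Dmrtb1, a DM-domain factor of the step from mitosis to meiosis, lies on chromosome 4 (107676290 to 107684230, minus strand, GRCm38), 33.2 Mb from Padi2. Its normalized counts were 16811 and 16654 in WT, 16014 and 15419 in P2KO, and 17246 and 16367 in DKO. The P2KO libraries lay below all others, by a log2 fold change of -0.09 against WT (SE 0.0538, interval -0.20 to 0.02, adjusted p = 0.686). DKO overlapped WT, at 0.01 (interval -0.10 to 0.12), which made Dmrtb1 the member with the narrowest interval. The RNA-binding protein gene Dazl stood at 0.11 (interval -0.02 to 0.24) for P2KO and 0.04 (-0.09 to 0.17) for DKO. Sohlh1, a bHLH factor that turns on Kit, had 102.5 and 92.57 in WT, 114.4 and 110.7 in P2KO, and 112.1 and 120.9 in DKO. All its knockout libraries lay above WT, with log2 fold changes of 0.21 (interval -0.14 to 0.57) and 0.26 (-0.10 to 0.61). Its partner Sohlh2 stood at 0.13 and 0.02, and the X-linked homeobox gene Rhox13 at -0.09 and -0.03.

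SOHLH1, SOHLH2, NEUROG3 and MYCN belong to the bHLH family, whose members bind the E-box, CANNTG. The 250 bases upstream of the start are shown for Kit, Pdpn and Dmrtb1, whose values are described in full above, and for Sohlh1, the member with most E-boxes. No window was matched for Ret. This choice was made after the values were seen. Sequences are RefSeq windows of the GRCm38.p6 reference (strain C57BL/6J, not FVB/NJ), 5′ to 3′ on the gene's strand, with capitals for E-boxes.
Kit, chr5:75574737-75574986, plus strand: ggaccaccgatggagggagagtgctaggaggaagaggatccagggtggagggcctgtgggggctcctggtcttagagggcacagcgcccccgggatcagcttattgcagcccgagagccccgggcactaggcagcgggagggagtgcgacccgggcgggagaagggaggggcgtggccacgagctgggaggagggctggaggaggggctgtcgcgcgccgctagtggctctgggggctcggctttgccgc
Sohlh1, chr2:25847249-25847498, minus strand: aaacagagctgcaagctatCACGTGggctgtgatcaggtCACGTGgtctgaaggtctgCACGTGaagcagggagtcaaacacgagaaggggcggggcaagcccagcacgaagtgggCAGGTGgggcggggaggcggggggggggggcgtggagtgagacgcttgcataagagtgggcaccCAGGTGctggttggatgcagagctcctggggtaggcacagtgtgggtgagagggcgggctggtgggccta
Dmrtb1, chr4:107684231-107684480, minus strand: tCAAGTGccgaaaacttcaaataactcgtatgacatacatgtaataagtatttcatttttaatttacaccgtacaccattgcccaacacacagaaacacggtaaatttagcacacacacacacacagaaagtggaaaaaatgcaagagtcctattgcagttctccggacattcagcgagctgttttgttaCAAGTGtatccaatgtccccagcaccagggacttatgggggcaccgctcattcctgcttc
Pdpn, chr4:143299565-143299814, minus strand: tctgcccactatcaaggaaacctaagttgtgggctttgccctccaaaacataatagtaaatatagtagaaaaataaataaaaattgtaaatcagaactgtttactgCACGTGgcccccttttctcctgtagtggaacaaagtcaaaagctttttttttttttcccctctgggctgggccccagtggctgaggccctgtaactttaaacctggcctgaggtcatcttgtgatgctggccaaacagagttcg
The Kit window, which follows the RefSeq start and so ends 71 bases inside the GENCODE gene, holds 0 E-boxes. That of Sohlh1 holds 5, of which 3 are CACGTG, the Dmrtb1 window shown holds 2 and that of Pdpn holds 1, a CACGTG. Dmrtb1 has a second RefSeq start, whose window holds 3 E-boxes and is not shown. Among the 33 windows found for 25 of the 36 members, 57.6% hold a CANNTG, against 66.2% of the 32851 windows of all genes. CACGTG was in 9.09% and 6.02%. CANNTG was searched on 1 strand because its reverse complement is again CANNTG. A match describes these letters and not a bound site.

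The 3 D-type cyclins, which drive the entry into the cell cycle, differed in level but not by a call. Ccnd3 was the highest (35.5 TPM in WT), with normalized counts of 3247 and 3128 in WT, 3483 and 3180 in P2KO, and 3328 and 3112 in DKO. All genotypes overlapped, and the log2 fold change was 0.06 (interval -0.06 to 0.19) for P2KO and 0.02 (-0.11 to 0.14) for DKO. It has a near-identical copy, Ccnd3-ps (96.3% over 881 nucleotides), so some of the Ccnd3 reads may not have been assigned to it. Ccnd1 stood at 0.14 and -0.02, and Ccnd2 at -0.01 and 0.21. Of the de novo DNA methyltransferases, Dnmt3b stood at 2.94 TPM and Dnmt3a at 2.26 TPM in WT, an order that turned with the longest transcript as the length (2.9 and 3.24 TPM). Dnmt3b had normalized counts of 149.8 and 157.4 in WT, 152.6 and 152.2 in P2KO, and 145.6 and 164.3 in DKO, all genotypes overlapping, with log2 fold changes of -0.01 (interval -0.32 to 0.29) and 0.01 (-0.30 to 0.31). Dnmt3a stood at 0.06 and 0.10.

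Uchl1, a ubiquitin hydrolase used to stain spermatogonia, had normalized counts of 1026 and 1128 in WT, 986.3 and 956 in P2KO, and 994.3 and 960.5 in DKO. All 4 knockout libraries lay below WT, with a log2 fold change of -0.15 (SE 0.0769, interval -0.31 to 0.01, adjusted p = 0.596) for P2KO and -0.14 (SE 0.0771, interval -0.30 to 0.02, adjusted p = 0.428) for DKO. Upp1, a uridine phosphorylase, stood at 0.63 (interval -0.33 to 1.58) and 0.71 (-0.24 to 1.66) on few reads.

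Set beside these members were 44 other genes of the same pathway, namely signals to spermatogonia and their receptors and further genes of undifferentiated and differentiating spermatogonia, of which 43 were tested. None was called for P2KO against WT, where 0.337% of all tested genes were, and DESeq2 on all 6 libraries called 0 as well. At an unadjusted p under 0.05 there were 2 (1 higher, 1 lower) for P2KO against WT, 8 (5 higher, 3 lower) for DKO against WT and 8 (5 higher, 3 lower) for DKO against P2KO, beside 8.57%, 14.1% and 11.8% of all tested genes. For DKO against WT, 1 was called higher and 1 lower, where 2.06% of all tested genes were called higher and 1.16% lower. For DKO against P2KO 1 was called higher, where 0.607% of all tested genes were called higher and 0.598% lower. Mki67, which encodes the proliferation antigen Ki-67 found in all dividing cells, was higher in DKO. Its normalized counts were 1303 and 1178 in WT, 1279 and 1310 in P2KO, and 1549 and 1603 in DKO, so both DKO libraries lay above the other 4. The log2 fold change was 0.35 (SE 0.072, adjusted p = 0.0025) for DKO against WT and 0.28 (SE 0.0715, adjusted p = 0.0346) for DKO against P2KO. The call against WT was lost without WT 2 (0.27, adjusted p = 0.0683) or without DKO 2 (0.32, adjusted p = 0.0881), and that against P2KO without any of the 4 libraries compared (adjusted p from 0.13 to 0.368) and with DESeq2 on all libraries (adjusted p = 0.0781).

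Kdm1a, which encodes the histone demethylase LSD1, was lower in DKO than in WT. It lies on chromosome 4, 4.3 Mb from Padi2. Its normalized counts were 3700 and 3552 in WT, 3191 and 3650 in P2KO, and 3088 and 2865 in DKO. Both DKO libraries lay below the other 4, with a log2 fold change of -0.28 against WT (SE 0.0663, adjusted p = 0.00854) and -0.20 against P2KO (adjusted p = 0.158). The difference from P2KO was called with edgeR on those 2 genotypes alone (-0.20, adjusted p = 0.0379), without WT 1 (adjusted p = 0.0356) and without WT 2 (adjusted p = 0.0302). Without DKO 2 the value against WT was -0.23 (adjusted p = 0.263), and the call was lost.

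Markers of other testicular cells moved between the same libraries. Of 6 elongating spermatid genes, Tnp2 was called lower in P2KO than in WT, where 0.14% of all tested genes were called lower. Prm1 and Tnp1 were called lower in DKO than in WT, where that share was 1.16%. The summed normalized count of the 6 genes was 84.6% and 92.2% of the WT mean in P2KO and 91.5% and 90.5% in DKO. Of 7 Leydig cell genes, Cyp11a1, Cyp17a1 and Star were called higher and Hsd3b1 was called lower in DKO than in WT. Over all tested genes, 2.06% were called higher and 1.16% lower in that comparison. The Leydig sum was 115% and 103% of the WT mean in P2KO and 129% and 106% in DKO. Of the 9 spermatocyte genes, 1 (Sycp2) was called higher in DKO than in WT, beside the same 2.06%. Of 9 tested Sertoli genes, 1 (Aard) was called lower in DKO than in P2KO, where 0.598% of all tested genes were called lower. All 9 Sertoli genes had a log2 fold change above 0 for P2KO against WT (median 0.11) and below 0 for DKO against P2KO (median -0.15). In the latter, 5 were lower without overlap, beside 21.6% of all tested genes. Both comparisons share the same 2 P2KO libraries. For DKO against WT, 3 were above 0 and 6 below (median -0.06). The Sertoli sum was 103% and 105% of the WT mean in P2KO and 101% and 89.7% in DKO. The 5 endothelial genes had a median log2 fold change of 0.43 for DKO against WT, with a lowest edgeR adjusted p of 0.0849. Of these, 4 were higher without overlap, beside 21.6% of all tested genes. At an unadjusted p under 0.05, 2 were higher, beside 7.89% of all tested genes. The endothelial sum was 100% and 114% of the WT mean in DKO. The 5 myoid, 6 macrophage, 5 endothelial and 5 round spermatid genes had 0 calls with edgeR or with DESeq2. From 0 to 2 genes of each list had an unadjusted p under 0.05 in a comparison, beside 8.57% to 14.1% of all tested genes. With DESeq2 on all 6 libraries, 0 elongating spermatid genes were called for DKO against WT, and of the Leydig genes 0 were called higher and 1 lower. The members without Dmrtb1 summed to 104% and 106% of the WT mean in P2KO and 104% and 99.8% in DKO. The WT libraries stood at 101% and 98.7%. Dazl and Ccnd3 weigh most in this sum, since with Dmrtb1 they held 77.7% to 79.4% of the members' counts. Genes with few counts hardly move it. The sums of single roles rest on fewer genes. Those of the differentiation genes, which include Dmrtb1, ran from 96.2% to 103% over all libraries. The GDNF receptor sum joined Ret, higher in all knockout libraries than in WT, with Gfra1, which overlapped between genotypes. Other values were those of the GDNF receptor (118% and 118% in P2KO, 118% and 117% in DKO, against 108% and 91.5% in WT), of the GDNF-induced factors (87.6% and 111%, 109% and 112%, against 102% and 97.5%) and of Uchl1, Upp1 and Prdm1 together (91.8% and 89.4%, 93.2% and 89.6%, against 95.2% and 105%). The part of these shifts in the members' values was not tested.

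**Figure D4:**
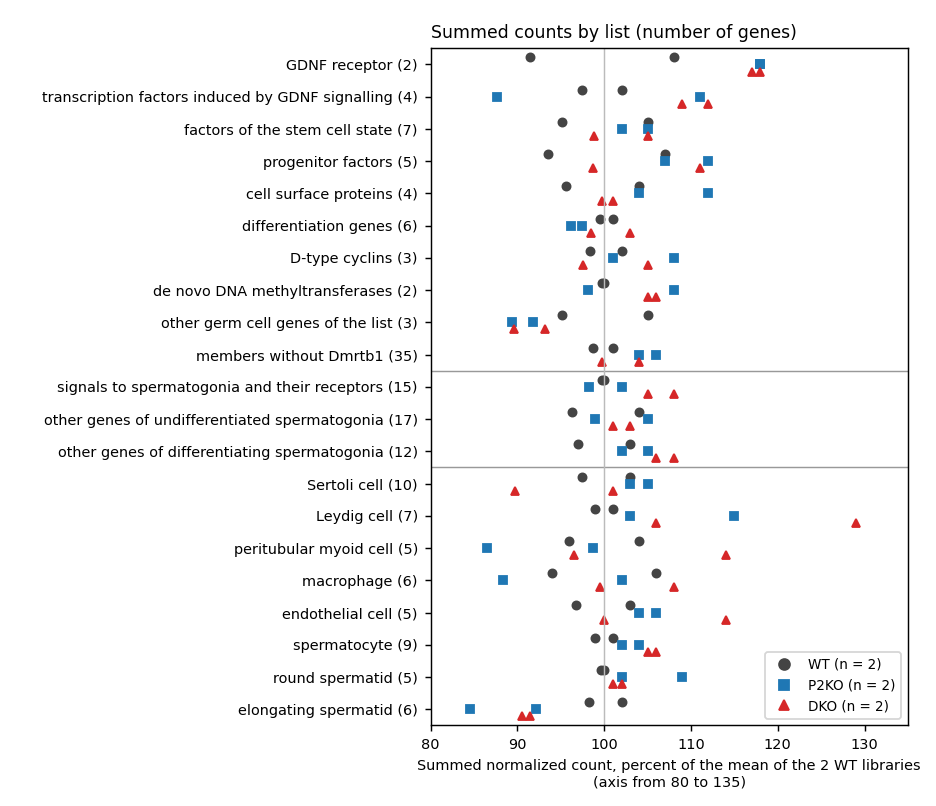
Summed normalized count of each gene list as a percent of its WT mean (horizontal axis) in each of the 6 libraries, with the number of genes in parentheses and colour and shape marking genotype. The members without Dmrtb1 lie from 98.7% to 106% in all libraries, and the elongating spermatid genes lie below 100% in all 4 knockout libraries. The sum of the 2 GDNF receptor genes lies at 117% to 118% in the knockouts and at 108% and 91.5% in WT. Of these 2 genes, Ret lies higher in the knockouts and Gfra1 overlaps throughout.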

How the data were processed

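Poly(A)-selected, directional paired-end libraries were made by the authors from whole testis of WT, P2KO and DKO mice, 2 mice per genotype. Reads were trimmed with Trim Galore and aligned to GRCm38 with STAR, whose counts per gene were deposited by the authors as 1 table of raw counts, with no normalization or filter. Versions are not given in the sources used here. Nothing says which of STAR's strand columns was deposited, but 13 genes wholly covered by exons on the opposite strand alone had a mean of at least 100 counts per library, so the counting used strand, and genes overlapping a member on the opposite strand need not take its reads.

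Counts were fitted in R 4.3.3 with edgeR 4.0.16. Genes kept by filterByExpr (minimum count 10) numbered 20744, holding at least 99.887% of each library's counts. After TMM scaling (factors 0.9836 to 1.017), glmQLFit and glmQLFTest used all 6 libraries with a term for genotype (3 residual degrees of freedom). P-values were adjusted by Benjamini-Hochberg over all tested genes, and an adjusted p under 0.05 was a call. Depth was 21939393 to 27306679 counts per library, which limits precision for genes with few counts. With 2 mice a side, p-values rest on a spread shared across genes. TPM used merged exon lengths of GENCODE release M21. Near-identical copies were found with BLAST 2.17.0 (at least 95% identity over 150 nucleotides and 50% of the shorter transcript). In simulated data for DKO against WT (20429 genes tested, 197 changed), 96% of log2 changes of 2 and 79.6% of log2 changes of 1 were called, with 7 false calls. The changed genes were drawn at random from all tested genes, with the spread estimated by this same fit. These rates are therefore not those of the members.

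Members and lists were chosen with earlier results of these data known. Values in every library are given for members with an unadjusted p under 0.05 in any comparison, on chromosome 4, failing the filter, or highest per length of their role in WT. Values are also given for pathway genes that were called, and other genes were named after their values were seen. Alternatives were RLE size factors, no filter, DESeq2 1.42.0 with all libraries or only those of the compared pair, edgeR for that pair alone, the replicate number as a block, a gene length correction (lowess, span 0.3) alone or with the block, and each library left out in turn.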

Additional observations from a re-analysis of the deposited data

Results flagged for a closer look

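Mki67, the proliferation marker among the other pathway genes, differed between the 2 knockout lines themselves: the log2 fold change of DKO against P2KO was 0.28 (SE 0.0715, edgeR adjusted p = 0.0346), while P2KO against WT was 0.06 (SE 0.0727, adjusted p = 0.877). Both DKO libraries lay above both P2KO libraries. The knockouts were compared with the same 2 WT libraries, and the call was lost under the replicate block (0.28, adjusted p = 0.0655). The cause was not tested.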

How the results depend on the processing

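No member was called under any alternative, though DESeq2 on the DKO and P2KO libraries alone gave an adjusted p to only 5 members, and of 1300 member values 1200 kept their sign. The number of all genes called moved more. For P2KO against WT it was 140 with no filter, 41 with DESeq2 on all 6 libraries and 40 with DESeq2 on the 2 genotypes compared, against 70. For DKO against WT it was 404 and 296 with DESeq2 in the same order, against 668, and for DKO against P2KO 162 with DESeq2 on all libraries and 579 with edgeR on the 2 genotypes, against 250. Leaving out 1 library at a time gave 53 to 311 genes for P2KO against WT (highest without WT 1), 250 to 1065 for DKO against WT (lowest without DKO 2, highest without WT 1) and 108 to 622 for DKO against P2KO (lowest without DKO 2, highest without WT 2), with 0 members called each time. A genotype left with 1 library was assumed to vary like the others. With a length correction and the block, the genes called for DKO against WT were 257 higher and 219 lower, against 428 and 240. The cause of these shifts was not tested. Depth limits Nanos3, Neurog3, Pdpn, Upp1 and the 5 untested members.

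The replicate numbers gave no pairing (correlations of same-numbered libraries' deviations -0.0572, 0.0574 and -0.0502). With the replicate block the genes called were 45 for P2KO against WT, 555 for DKO against WT and 189 for DKO against P2KO, with 0 members called. No sign of a called result was reversed. Among results other than the counts above, 573 kept their side of the threshold or moved by less than the spread, 10 moved further, 10 lost a call and 3 gained one.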

Other observations

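Among signals to spermatogonia, named after their values were seen, none was called. Fgfr3, a fibroblast growth factor receptor, had normalized counts of 127.3 and 125 in WT, 85.15 and 95.81 in P2KO, and 138.9 and 128.3 in DKO. Both P2KO libraries lay below the other 4, with a log2 fold change of -0.48 (SE 0.172, edgeR adjusted p = 0.348) for P2KO against WT and 0.57 (SE 0.17, adjusted p = 0.103) for DKO against P2KO. Gdnf, the ligand of the receptor formed by Gfra1 and Ret, had 22.53 and 26.85 in WT, 41.69 and 36.2 in P2KO, and 32.57 and 34.99 in DKO. All its knockout libraries lay above WT, at 0.65 (SE 0.303, adjusted p = 0.549) for P2KO and 0.44 (SE 0.312, adjusted p = 0.589) for DKO. Igf1 had 211.8 and 222.2 in WT, 196.9 and 212.9 in P2KO, and 280.7 and 270.3 in DKO. Both DKO libraries lay above the other 4, at 0.34 against WT (adjusted p = 0.151) and 0.43 against P2KO (adjusted p = 0.0897). The last was the lowest adjusted p of the 14 tested signals in any comparison. Fgf2 and Igf1r stood at 0.59 and 0.21 for DKO against WT (adjusted p = 0.198 and 0.31). Of the 14, 11 were above 0 and 3 below in that comparison.

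Dnmt3l, a cofactor of the de novo DNA methyltransferases, had 262.5 and 224.9 in WT, 259 and 267.2 in P2KO, and 169.5 and 213.1 in DKO. Both DKO libraries lay below the other 4, at -0.35 (SE 0.137, adjusted p = 0.201) against WT and -0.46 (SE 0.135, adjusted p = 0.0896) against P2KO.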
